A study of Arabidopsis thaliana with 12 samples.

Results

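The genes described here are 79 of the 691 Arabidopsis thaliana genes that the array reads through a probe assigned to a single gene. They were chosen from the measured values. The intensities of each sample were turned into percentile ranks over all 3439 probes, from 0 for the dimmest to 100 for the brightest. A gene was taken when each of high-CO2 samples 1 to 4 ranked above each of normal-CO2 samples 1 to 4, with means at least 5 points apart. In addition, the means of the sample pairs 1-2, 3-4 and 5-6 of the groups were not allowed to separate completely. The whole high against normal CO2 contrast of these 12 samples was therefore used in the choice, so every difference below is a description and no test was made on it. A list of 11 named genes was to be left out, and 0 of them met the numerical conditions.

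Total RNA came from wild-type plants of the Columbia 0 ecotype. The 6 high-CO2 samples came from plants kept for their last 6 d at 1% (v/v) CO2, and the 6 normal-CO2 samples, labelled 0 d, came from plants grown at normal CO2. Organ and plant age are not stated in the labels, so an effect of CO2 and one of 6 d of further growth cannot be told apart. Nothing says that the samples came from different plants either, and the spread between samples may be technical.

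High CO2 around a leaf favours the carboxylation reaction of Rubisco over its oxygenation reaction, which lowers photorespiration and feeds more carbon into sugars and starch. Most chloroplast proteins are encoded in the nucleus, and the levels of their transcripts are known to respond to light, sugars and the state of the plastid. The 79 genes are not one pathway: 75 are named by a locus code alone in the platform annotation and 4 by a symbol. RefSeq matched 78 of them, all listed there as protein-coding, and AT1G03660 was not matched. No function is given below for a gene that the annotation names by its code alone. By locus code, 27 of the 79 lie on chromosome 1, 10 on chromosome 2, 12 on chromosome 3, 11 on chromosome 4 and 19 on chromosome 5. Among all genes with a single-gene probe these chromosomes held 174, 123, 130, 120 and 143. Only 2 pairs of the 79 lay within 10 steps of each other in the RefSeq gene order, AT1G32160 with AT1G32220 and AT2G36920 with AT2G37000.

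Samples 5 and 6 stood apart from samples 1 to 4 of their own label across the whole array. Each of the 12 samples had its partner in the pairs 1-2, 3-4 and 5-6 as its closest match (rank correlation across probes from 0.916 to 0.980 within pairs). High-CO2 samples 5 and 6 correlated at 0.803 to 0.842 with high-CO2 samples 1 to 4, and at 0.886 to 0.910 with normal-CO2 samples 1 to 4. Normal-CO2 samples 5 and 6 correlated at 0.681 to 0.751 with high-CO2 samples 1 to 4 and at 0.770 to 0.778 with normal-CO2 samples 1 to 4. The median deposited intensity of all probes lay between 0.340 and 0.390 in high-CO2 samples 1 to 4 and between 0.160 and 0.166 in normal-CO2 samples 1 to 4. In samples 5 and 6 this order was turned round, with 0.174 and 0.175 in the high-CO2 samples, against 0.256 and 0.255 in the normal-CO2 samples. Percentile ranks take out such a shift of the whole array, whereas the deposited intensities given below carry it, and its part in the differences was not tested. Values of samples 1 to 4 and of samples 5 and 6 are given separately throughout.

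The conditions of the choice were common in the table. Of the 691 genes, 128 (18.5%) had all 4 high-CO2 samples above all 4 normal-CO2 samples in samples 1 to 4, and 142 (20.5%) had them all below. The separation upward by at least 5 points held for 114 genes (16.5%). The whole rule was met by 79 genes (11.4%), and by 71 genes (10.3%) with the direction turned round. Over all 3439 probes, named or not, the whole rule held for 400 upward (11.6%) and 397 downward (11.5%), and separation of samples 1 to 4 alone for 643 upward (18.7%) and 784 downward (22.8%). Upward and downward choices were thus of about the same size, and the 79 genes are the portion with single-gene probes of a pattern seen across the array. In 35 further genes raised by at least 5 points in samples 1 to 4 the pair means did separate. Their median rank difference, high minus normal CO2, was 16.9 points in samples 1 to 4 and 15.3 points in samples 5 and 6. Separated pair means fix that the difference in samples 5 and 6 is above 0 in each of these genes.

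As a group the 79 genes ranked in the upper middle of the array in high-CO2 samples 1 to 4 and below the middle in the other samples at high CO2. The median rank over the 79 genes was 63.5, 63.6, 65.2 and 64.3 in high-CO2 samples 1, 2, 3 and 4, against 38.3, 38.3, 38.9 and 40.8 in normal-CO2 samples 1, 2, 3 and 4. It was 38.9 and 39.4 in high-CO2 samples 5 and 6, against 47.0 and 46.0 in normal-CO2 samples 5 and 6. High-CO2 samples 5 and 6 therefore sat at the level of normal-CO2 samples 1 to 4, and normal-CO2 samples 5 and 6 lay between the sets. The rule fixed the order in samples 1 to 4. It also favoured genes low in high-CO2 samples 5 and 6 or high in normal-CO2 samples 5 and 6, so these levels are a description. The median over all 691 genes stayed between 44.1 and 48.0 in the 12 samples.

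**Figure D1:**
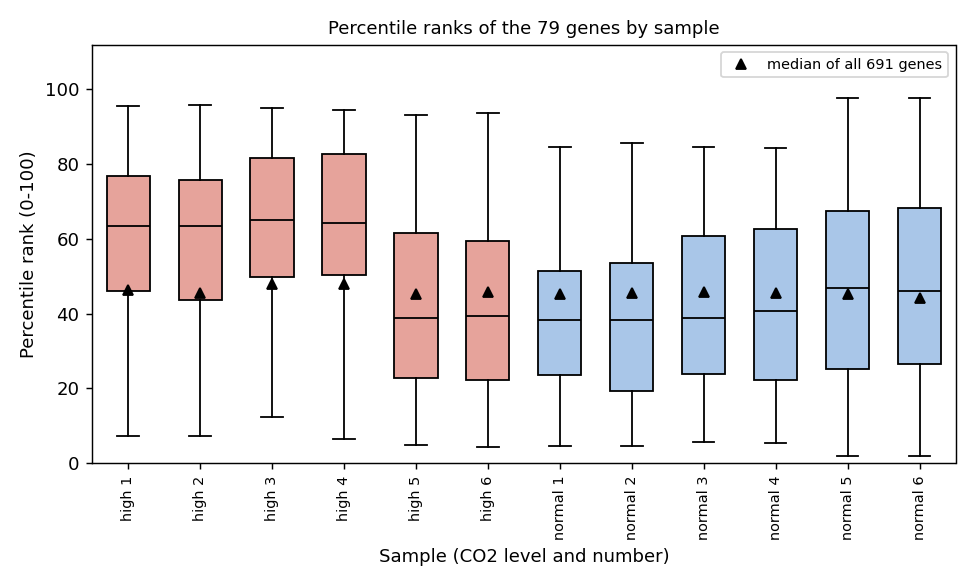
Percentile rank (0 to 100) of the 79 genes in each of the 12 samples, high CO2 in red and normal CO2 in blue. Boxes span the quartiles, the line is the median, whiskers reach the lowest and highest gene, and triangles mark the median of all 691 genes; the medians of high-CO2 samples 1 to 4 (63.5 to 65.2) stand above those of the other 8 samples.

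The median rank difference of the 79 genes, high minus normal CO2, was 19.8 points in samples 1 to 4, with a range from 5.21 to 45.2 points. Over all 691 genes the median was 0.0, with quartiles at -7.33 and 8.13 points. Of the 79 genes, 72 differed by at least 10 points, 39 by at least 20 and 13 by at least 30. On the log2 scale after quantile normalization, the median difference was 1.08 in samples 1 to 4, against 0.0 over all 691 genes, and 44 of the 79 differed by at least 1. The choice itself favours high counts at these cut-offs, and the same counts over all 691 genes are not given. In samples 5 and 6 the median rank difference was -6.73 points, with a range from -62.2 to 58.5, against 0.32 over all 691 genes. The median log2 difference there was -0.36. Taken over all 6 samples per group, a setting chosen after seeing the data, the median rank difference of the 79 genes was 11.3 points.

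The spread between samples is given as a description, since the choice fixed that the groups part in samples 1 to 4. The median gap between the samples of a pair over the 79 genes was 2.47, 3.72 and 3.58 rank points for the high-CO2 pairs 1-2, 3-4 and 5-6. It was 4.31, 3.78 and 1.98 points for the normal-CO2 pairs 1-2, 3-4 and 5-6. Over all 691 genes these 6 medians ran from 2.82 to 4.28 points. The means of pairs 1-2 and 3-4 lay a median of 5.31 points apart at high CO2 and 6.24 points apart at normal CO2. The margin between the lowest of high-CO2 samples 1 to 4 and the highest of normal-CO2 samples 1 to 4 had a median of 7.24 points. If the samples of a pair are repeats of each other, samples 1 to 4 hold 2 independent values per group and not 4, and the SDs below understate the spread between plants.

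A minority of the 79 genes were higher at high CO2 in samples 5 and 6 too. In samples 5 and 6, both high-CO2 samples ranked above both normal-CO2 samples in 16 of the 79 genes (20.3%), against 283 of all 691 genes (41.0%). Both ranked below in 48 of the 79 (60.8%), against 275 of 691 (39.8%), and the samples overlapped in 15 (19.0%), against 133 of 691 (19.2%). Since the rule asked for pair means that do not separate, it favoured genes that are lower in high-CO2 samples 5 and 6, and nothing is read from these shares. One of the 16, AT1G32220, was listed at 0 in all 4 of these samples and ranked higher only through tied zeros, which 325 and 306 probes shared in high-CO2 samples 5 and 6 and 138 and 133 probes in normal-CO2 samples 5 and 6; without it 15 remain. High-CO2 samples 5 and 6 both lay below all of high-CO2 samples 1 to 4 in 69 of the 79 genes, against 176 of all 691 genes (25.5%), a count that the rule favours in the same way.

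How samples 5 and 6 fell divides the genes into 4 sets. In 42 genes the high-CO2 pair 5-6 lay at or below a normal-CO2 pair of samples 1 to 4. In 19 genes the normal-CO2 pair 5-6 lay at or above a high-CO2 pair of samples 1 to 4. In 14 genes both held, and in the other 4 the high-CO2 pair 5-6 lay at or below the normal-CO2 pair 5-6 alone.

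**Figure D2:**
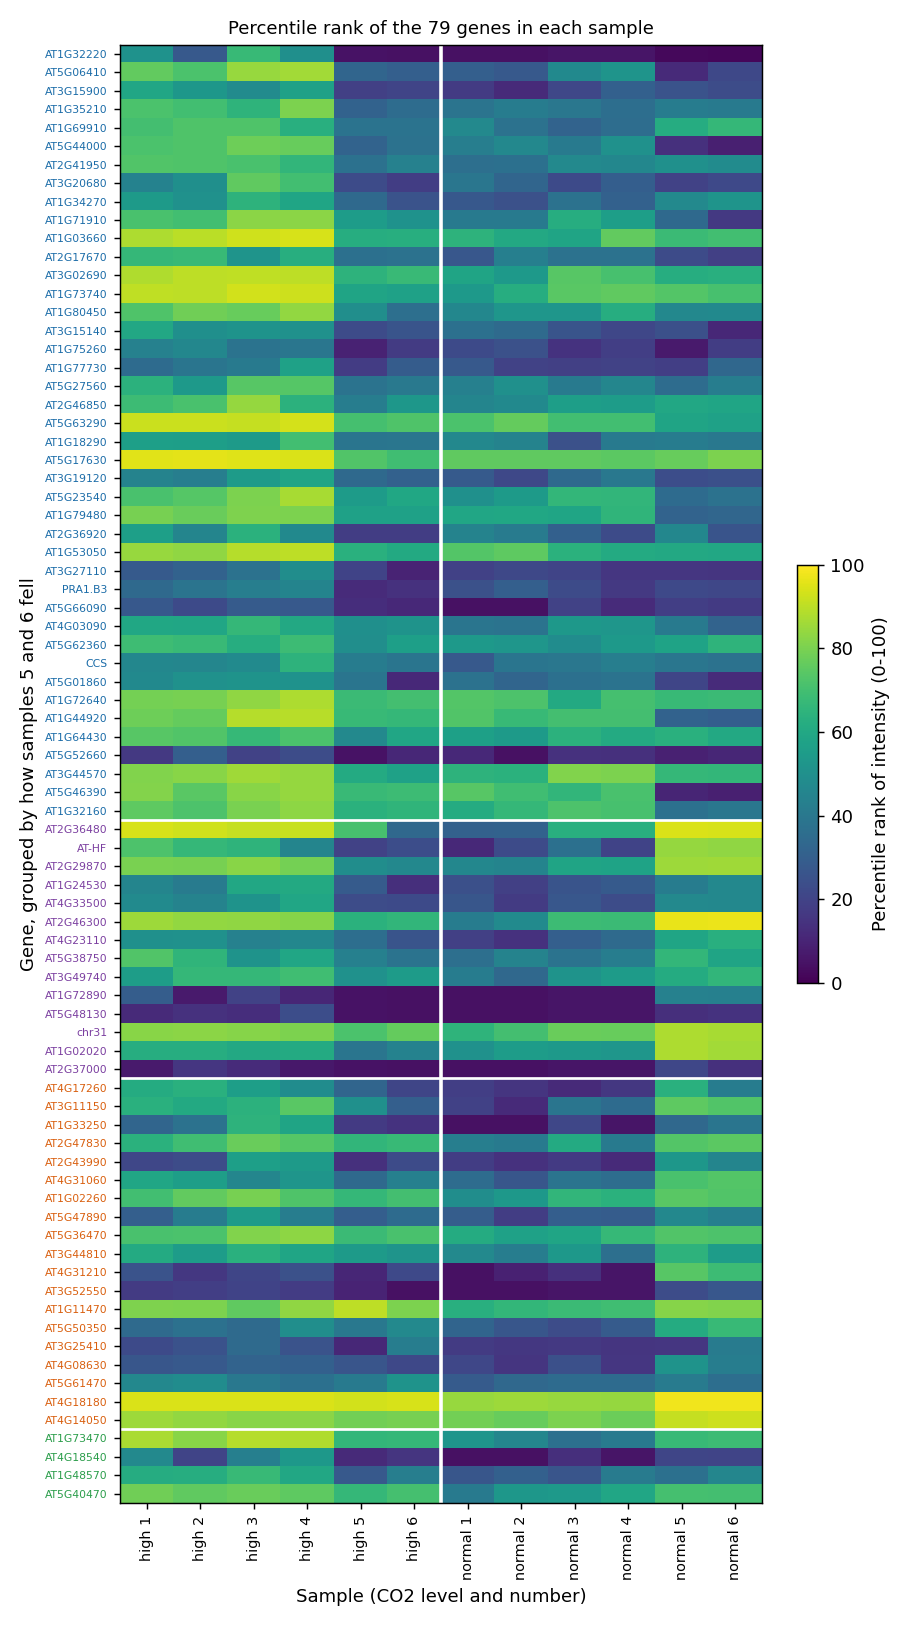
Percentile rank (colour, 0 to 100) of each of the 79 genes (down the page) in each of the 12 samples (across, high CO2 left of normal CO2). White lines part the sets of 42, 14, 19 and 4 genes. High-CO2 samples 1 to 4 are brighter than normal-CO2 samples 1 to 4 in every gene. High-CO2 samples 5 and 6 are darker in the top set, and normal-CO2 samples 5 and 6 are bright in the sets of 14 and 19. The rule and the way the sets were formed fix these contrasts for the pair means.

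In the set of 42 the high-CO2 level of samples 1 to 4 was not shared by high-CO2 samples 5 and 6. This is fixed by the way the set was formed, which puts the mean of the high-CO2 pair 5-6 below all of high-CO2 samples 1 to 4. Median ranks over the 42 genes were 70.1 in high-CO2 samples 1 to 4 and 39.8 in high-CO2 samples 5 and 6. They were 43.5 in normal-CO2 samples 1 to 4 and 36.4 in normal-CO2 samples 5 and 6. The median rank difference was 20.2 points in samples 1 to 4 and 0.18 points in samples 5 and 6. All 16 genes that were higher in both high-CO2 samples 5 and 6 than in both normal-CO2 ones belong to this set, AT1G32220 through tied zeros only. Another 16 of the 42 were lower. Over all 691 genes, 283 (41.0%) were higher and 275 (39.8%) lower. The sets of 14 and 4 cannot hold such a higher gene by the way they were formed, so nothing is read from these counts.

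AT1G32220 had deposited intensities of 0.351, 0.180, 0.589 and 0.385 in high-CO2 samples 1 to 4 and was listed at 0 in the other 8 samples, normal and high. It was thus listed above 0 in high-CO2 samples 1 to 4 alone, at 0.376 ± 0.168 (SD, n = 4), and no fold is given against a group listed at 0. Its rank difference of 43.9 points was the second largest of the 79. AT5G06410 had intensities of 0.688, 0.609, 1.03 and 1.12 in high-CO2 samples 1 to 4, against 0.0805, 0.0728, 0.146 and 0.170 in normal-CO2 samples 1 to 4. Its values were 0.0918 and 0.0843 in high-CO2 samples 5 and 6, against 0.0474 and 0.0912 in normal-CO2 samples 5 and 6, where the intensities overlap although the ranks do not (difference 14.8 points). Its log2 difference after quantile normalization was 1.99 in samples 1 to 4 and 1.22 in samples 5 and 6.

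AT3G15900 had 0.420, 0.366, 0.377 and 0.450 in high-CO2 samples 1 to 4, against 0.0342, 0.0149, 0.0406 and 0.0750 in normal-CO2 samples 1 to 4. Its ranks had an SD of 4.73 points among high-CO2 samples 1 to 4 and 7.92 points among normal-CO2 samples 1 to 4, and the log2 difference after quantile normalization was 1.90. The pair 5-6 had 0.0408 and 0.0470 in high-CO2 plants, against 0.108 and 0.0988 in normal-CO2 plants. Its high-CO2 values thus fell within the range of normal-CO2 samples 1 to 4. AT5G17630, among the 4 brightest of the 79, had 2.89, 2.88, 2.48 and 2.26 in high-CO2 samples 1 to 4, against 0.447, 0.437, 0.444 and 0.435 in normal-CO2 samples 1 to 4. Mean intensity was 2.63 ± 0.311 in high-CO2 samples 1 to 4 and 0.441 ± 0.00572 in normal-CO2 samples 1 to 4 (SD, n = 4 each), with a log2 difference of 2.25 after quantile normalization. The pair 5-6 had 0.385 and 0.337 in high-CO2 plants, against 0.652 and 0.777 in normal-CO2 plants. These high-CO2 values lay below all of normal-CO2 samples 1 to 4, and the normal-CO2 values lay between the high-CO2 and the normal-CO2 samples 1 to 4.

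The genes with the most positive rank differences, high minus normal CO2, in samples 5 and 6 were AT5G46390, AT1G44920 and AT1G71910. AT5G46390 had 0.856, 0.674, 0.934 and 1.01 in high-CO2 samples 1 to 4, against 0.411, 0.330, 0.281 and 0.355 in normal-CO2 samples 1 to 4. The pair 5-6 had 0.316 and 0.331 in high-CO2 plants, against 0.0383 and 0.0330 in normal-CO2 plants. The rank difference was 10.5 points in samples 1 to 4 and 58.5 points in samples 5 and 6, the larger of the differences being in samples 5 and 6. In samples 1 to 4 its groups were parted by only 0.52 points. AT1G44920 had 0.754, 0.705, 1.31 and 1.36 in high-CO2 samples 1 to 4, against 0.387, 0.305, 0.346 and 0.338 in normal-CO2 samples 1 to 4. It had 0.312 and 0.311 in high-CO2 samples 5 and 6, against 0.138 and 0.131 in normal-CO2 samples 5 and 6. AT1G71910 had rank differences of 26.4 points in samples 1 to 4 and 27.7 points in samples 5 and 6. Its intensities were 0.594, 0.569, 0.950 and 0.927 in high-CO2 samples 1 to 4, against 0.123, 0.122, 0.244 and 0.197 in normal-CO2 samples 1 to 4, and 0.210 and 0.181 in high-CO2 samples 5 and 6, against 0.154 and 0.0689 in normal-CO2 samples 5 and 6. All 3 genes kept the same direction in both sets of samples, and each was chosen here for its difference in samples 5 and 6.

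Of this set, CCS and PRA1.B3 have a symbol in the annotation. CCS is the copper chaperone that loads copper into copper/zinc superoxide dismutase, an enzyme that removes superoxide. Its intensity was 0.310, 0.305, 0.371 and 0.543 in high-CO2 samples 1 to 4, against 0.0717, 0.114, 0.108 and 0.123 in normal-CO2 samples 1 to 4. The pair 5-6 had 0.132 and 0.118 in high-CO2 plants, against 0.179 and 0.173 in normal-CO2 plants. On deposited intensity high-CO2 samples 5 and 6 lay below the normal-CO2 ones, while in rank they overlapped (41.8 and 38.8 against 39.2 and 37.5). PRA1.B3 belongs to the prenylated Rab acceptor family, membrane proteins that bind Rab GTPases of vesicle traffic. It had 0.218, 0.252, 0.332 and 0.346 in high-CO2 samples 1 to 4, against 0.0604, 0.0793, 0.0457 and 0.0234 in normal-CO2 samples 1 to 4. Values of 0.0130 and 0.0236 in high-CO2 samples 5 and 6, against 0.0954 and 0.0899 in normal-CO2 samples 5 and 6, stood in the opposite order.

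Among the other genes of this set with large differences, AT1G35210, AT1G69910, AT5G44000, AT2G41950 and AT3G20680 differed by 32.6, 31.6, 29.3, 28.9 and 28.8 rank points in samples 1 to 4. In samples 5 and 6 their rank differences were -7.81, -26.0, 23.6, -8.55 and -0.15 points, so the same size in samples 1 to 4 went with either direction in samples 5 and 6. AT1G34270, AT1G03660, AT2G17670, AT3G02690, AT1G73740, AT1G80450, AT3G15140, AT1G75260, AT1G77730, AT5G27560, AT2G46850, AT5G63290 and AT1G18290 followed with 26.9 to 20.03 points in samples 1 to 4. Of these, AT1G03660, AT3G02690, AT1G73740 and AT5G63290 were bright, averaging 1.67, 1.42, 1.68 and 1.79 in high-CO2 samples 1 to 4, against 0.296, 0.291, 0.325 and 0.374 in normal-CO2 samples 1 to 4.

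In the set of 14, high-CO2 samples 5 and 6 were low and normal-CO2 samples 5 and 6 were high. The way the set was formed fixes that the order of their pair means was turned round in every one of the 14 genes. Median ranks were 61.9 in high-CO2 samples 1 to 4 and 36.0 in high-CO2 samples 5 and 6. They were 32.5 in normal-CO2 samples 1 to 4 and 63.0 in normal-CO2 samples 5 and 6. The median rank difference was 22.5 points in samples 1 to 4 and -26.9 points in samples 5 and 6. In 8 of the 14 genes both normal-CO2 samples 5 and 6 lay above all of high-CO2 samples 1 to 4. This held in 212 of all 691 genes (30.7%), and the way the set was formed favours a higher count.

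AT2G36480 had the largest rank difference of the 79 in samples 1 to 4, 45.2 points. Its intensities were 2.33, 1.95, 1.62 and 1.66 in high-CO2 samples 1 to 4, against 0.0824, 0.0837, 0.249 and 0.255 in normal-CO2 samples 1 to 4. It then had 0.361 and 0.0977 in high-CO2 samples 5 and 6, against 2.41 and 2.34 in normal-CO2 samples 5 and 6. Its log2 difference after quantile normalization was 2.99 in samples 1 to 4 and -3.08 in samples 5 and 6. The layout was thus reversed at nearly the same size.

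AT-HF, also listed as HISN4, is an enzyme of histidine synthesis in the plastid that makes the imidazole ring of imidazole glycerol phosphate. Its intensities were 0.606, 0.518, 0.562 and 0.350 in high-CO2 samples 1 to 4, against 0.0113, 0.0550, 0.0968 and 0.0365 in normal-CO2 samples 1 to 4. The pair 5-6 had 0.0449 and 0.0577 in high-CO2 plants, against 0.963 and 0.911 in normal-CO2 plants. The rank difference was 39.3 points in samples 1 to 4 and -62.2 points in samples 5 and 6, the most negative of the 79.

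AT2G46300 had 1.05, 0.980, 0.987 and 0.903 in high-CO2 samples 1 to 4, against 0.126, 0.154, 0.324 and 0.312 in normal-CO2 samples 1 to 4. Its values were 0.278 and 0.303 in high-CO2 samples 5 and 6, against 3.74 and 4.31 in normal-CO2 samples 5 and 6, its highest level. AT1G02020 had a small difference in samples 1 to 4, with 0.461, 0.465, 0.495 and 0.502 in the high-CO2 samples, against 0.168, 0.198, 0.183 and 0.174 in the normal-CO2 samples. Its rank difference was 8.53 points there and -45.1 points in samples 5 and 6, which had 0.119 and 0.145 in high-CO2 plants, against 1.21 and 1.05 in normal-CO2 plants. The gene chr31, a chromatin remodelling protein by its RefSeq name, had rank differences of 9.41 points in samples 1 to 4 and -13.3 points in samples 5 and 6. Its intensity averaged 0.897 ± 0.0372 in high-CO2 samples 1 to 4 and 0.402 ± 0.107 in normal-CO2 samples 1 to 4 (SD, n = 4 each), and was 0.372 and 0.461 in high-CO2 samples 5 and 6, against 1.22 and 1.17 in normal-CO2 samples 5 and 6. AT2G29870, AT1G24530, AT4G33500, AT4G23110 and AT5G38750 differed by 28.1, 27.5, 27.1, 23.2 and 21.8 points in samples 1 to 4 and by -37.8, -23.1, -24.2, -29.6 and -21.6 points in samples 5 and 6.

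In the set of 19, normal-CO2 samples 5 and 6 reached the level of high-CO2 samples 1 to 4. Median ranks were 53.3 in high-CO2 samples 1 to 4 and 40.3 in high-CO2 samples 5 and 6. They were 27.7 in normal-CO2 samples 1 to 4 and 64.3 in normal-CO2 samples 5 and 6. Normal-CO2 samples 5 and 6 both lay above all of normal-CO2 samples 1 to 4 in 18 of the 19 genes, against 207 of all 691 genes (30.0%), and the way the set was formed favours this. The median rank difference was 14.7 points in samples 1 to 4 and -12.7 points in samples 5 and 6.

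AT4G17260 had 0.450, 0.478, 0.445 and 0.376 in high-CO2 samples 1 to 4, against 0.0393, 0.0309, 0.00189 and 0.0216 in normal-CO2 samples 1 to 4. The pair 5-6 had 0.0914 and 0.0472 in high-CO2 plants, against 0.390 and 0.197 in normal-CO2 plants. Its log2 difference after quantile normalization was 2.43 in samples 1 to 4 and -1.26 in samples 5 and 6. AT3G11150 had 0.473, 0.447, 0.549 and 0.708 in high-CO2 samples 1 to 4, against 0.0419, 0.0161, 0.104 and 0.0911 in normal-CO2 samples 1 to 4. Its pair 5-6 had 0.176 and 0.0825 in high-CO2 plants, against 0.624 and 0.560 in normal-CO2 plants. Both genes were thus higher at high CO2 in samples 1 to 4 and lower at high CO2 in samples 5 and 6.

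AT1G33250 had 0.209, 0.249, 0.557 and 0.463 in high-CO2 samples 1 to 4. It was listed at 0 in normal-CO2 samples 1, 2 and 4 and had 0.0393 in normal-CO2 sample 3. Values were 0.0344 and 0.0256 in high-CO2 samples 5 and 6, against 0.151 and 0.180 in normal-CO2 samples 5 and 6. AT4G18180, among the 4 brightest of the 79, varied little within each set of samples. It had 2.40, 2.32, 2.25 and 2.34 in high-CO2 samples 1 to 4, against 0.776, 0.832, 0.766 and 0.760 in normal-CO2 samples 1 to 4. High-CO2 samples 5 and 6 stayed close to the other high-CO2 samples, at 1.87 and 2.03, against 5.11 and 5.13 in normal-CO2 samples 5 and 6. Here the pair means met because of the normal-CO2 pair alone. AT4G31210 was dim in samples 1 to 4, with 0.160, 0.0942, 0.160 and 0.194 in the high-CO2 samples, against 0.00290 and 0.0108 in normal-CO2 samples 2 and 3 and a listed 0 in normal-CO2 samples 1 and 4. It had 0.00539 and 0.0522 in high-CO2 samples 5 and 6, against 0.587 and 0.482 in normal-CO2 samples 5 and 6. AT2G47830 and AT2G43990 had rank differences of 24.6 and 23.6 points in samples 1 to 4 and of -7.49 and -30.9 points in samples 5 and 6.

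The last 4 genes were AT1G73470, AT4G18540, AT1G48570 and AT5G40470. Their rank differences were 42.7, 34.03, 31.5 and 24.8 points in samples 1 to 4 and -1.53, -7.10, -6.09 and -1.70 points in samples 5 and 6. AT1G73470 had 1.20, 0.918, 1.35 and 1.22 in high-CO2 samples 1 to 4, against 0.176, 0.143, 0.0967 and 0.115 in normal-CO2 samples 1 to 4. Its values were 0.304 and 0.311 in high-CO2 samples 5 and 6, against 0.462 and 0.477 in normal-CO2 samples 5 and 6. All 4 of these values fell in the space between the high-CO2 and the normal-CO2 samples 1 to 4. AT4G18540 had 0.316, 0.130, 0.335 and 0.413 in high-CO2 samples 1 to 4, was listed at 0 in normal-CO2 samples 1, 2 and 4, and had 0.00955 in normal-CO2 sample 3. The values of 0.0123 and 0.0288 in high-CO2 samples 5 and 6 stood against 0.0915 and 0.0861 in normal-CO2 samples 5 and 6.

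**Figure D3:**
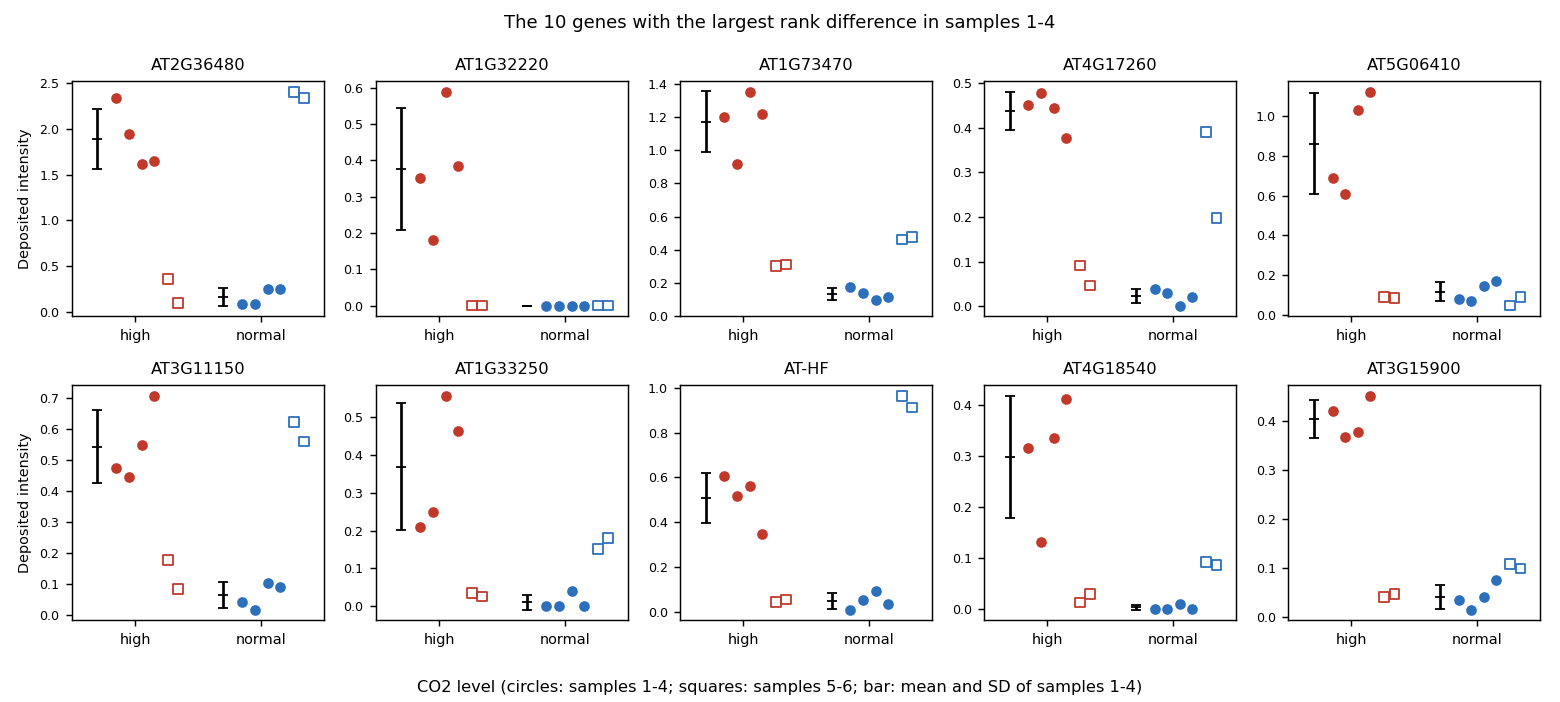
Deposited intensity (linear scale, each panel its own) of the 10 genes with the largest rank difference in samples 1 to 4, high CO2 left of normal CO2. Circles are samples 1 to 4, open squares samples 5 and 6, and bars the mean and SD of samples 1 to 4. In 8 of the 10 genes both high-CO2 squares lie below both normal-CO2 squares, opposite to the circles. In AT5G06410 the squares overlap and in AT1G32220 all squares are at 0. In percentile rank, both high-CO2 samples 5 and 6 lay below both normal-CO2 ones in 275 of all 691 genes (39.8%). The rule favours this order and the intensities carry the whole-array shift, so nothing is read from the count.

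Across genes, the differences in samples 1 to 4 and in samples 5 and 6 showed little relation. Pearson's r between the rank differences of samples 1 to 4 and of samples 5 and 6 was -0.193 over the 79 genes and -0.027 over all 691 genes. These are descriptions across genes, which share the same samples, and the choice of genes shapes the value over the 79. Taking samples by number, the high-CO2 sample ranked above the normal-CO2 sample in 4 of 6 numbers for 50 of the 79 genes, in 5 for 12 genes and in all 6 for 17 genes. The rule fixes this order in numbers 1 to 4, so 4 is the lowest count a chosen gene can have. Over all 691 genes, 144 had 4 such numbers, 63 had 5 and 75 had 6.

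**Figure D4:**
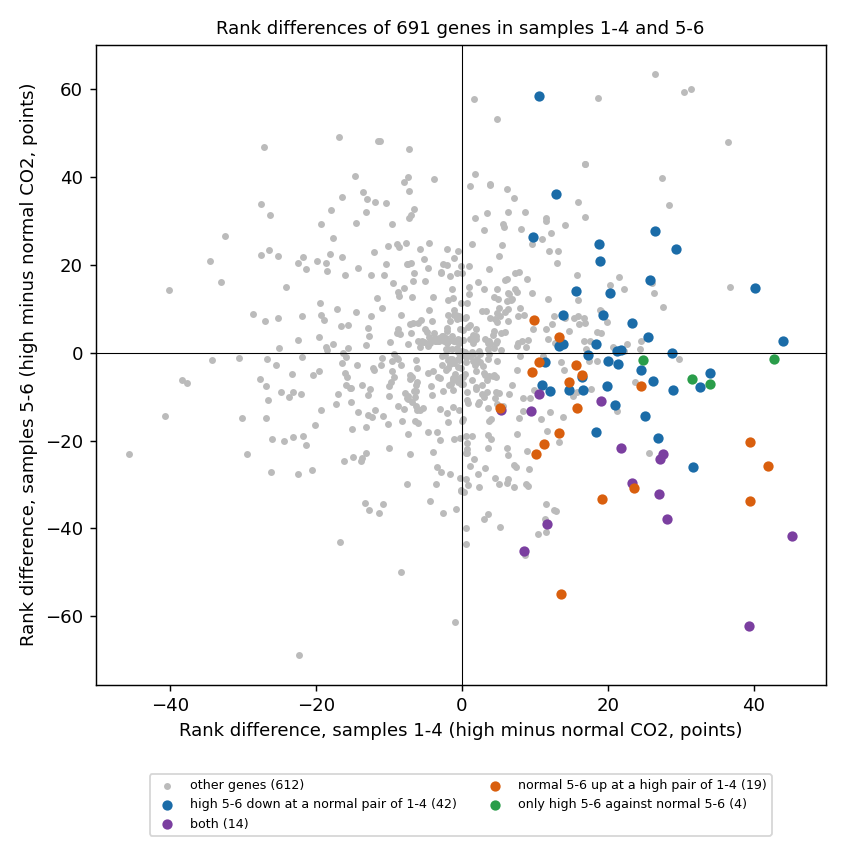
Difference in mean percentile rank, high minus normal CO2, in samples 1 to 4 (across) and in samples 5 and 6 (up) for all 691 genes. Grey points are genes not chosen and coloured points the sets of 42, 14, 19 and 4 genes; the coloured points lie right of 5.21 points across and spread from -62.2 to 58.5 points up.

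Most of the 79 genes were dim on the scale of the array, as were most of the 691 genes. The mean deposited intensity over 12 samples had a median of 0.292, with a range from 0.0281 to 2.21, on a scale that tops out at 100, against a median of 0.234 over all 691 genes. Of the 79 genes, 10 were listed at 0 in at least 1 sample and 5 in all of normal-CO2 samples 1 to 4, against 159 and 28 of all 691 genes. These 5 were AT1G32220, AT1G72890, AT5G48130, AT3G52550 and AT2G37000, with means of 0.376, 0.103, 0.102, 0.126 and 0.0468 in high-CO2 samples 1 to 4. A 0 is given here only as listed, since the sources used here do not say what it stands for.

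Just inside the minimum of 5 points lay AT4G14050, AT2G37000 and AT1G02020, with differences of 5.21, 5.33 and 8.53 points, and just outside lay AT1G17160, AT2G32640 and PPDK, with 4.68, 3.61 and 3.53 points. For the pair condition, the lowest high-CO2 pair mean minus the highest normal-CO2 pair mean was -0.36, -0.49 and -1.02 points for AT2G17670, AT5G61470 and CCS, the closest genes inside. It was 0.17, 0.80 and 0.95 points for AT3G29410, AT5G19900 and AT5G61450, the closest genes outside.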

How the data were processed

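The deposited table holds array intensities of 3439 probes in 12 samples. The values are on a linear scale, as judged from the deposited values: none is below 0, each sample has zeros and each tops out at about 100. No source used here names the array type, the background correction or the normalization behind the deposited intensities. Groups and sample numbers come from the labels. With arrays, precision is limited by how many there are.

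The platform annotation of 2016 gave 1 gene for 692 probes, several for 870 and none for 1877. The 692 probes stand for 691 genes, and the brighter of 2 probes stood for AT2G25870. Symbols were matched to RefSeq (TAIR10.1) by gene identifier, for names and gene order only. Percentile ranks used average ties. For log2 values, intensities were quantile normalized with zeros kept, and values under 0.0398, the largest 1st percentile of positive values found in any sample, were raised to it (12.5% of probes per sample). Folds of dim probes are understated by this floor. Python 3.11.15 and pandas 2.3.3 were used. The rule was tested on simulated data with planted changes, which lacked the pairs, zeros and whole-array shifts of these samples. The genes, the rule and the alternatives were chosen with earlier results of these data known. The text names the 40 genes with the largest rank difference in samples 1 to 4, the 4 brightest, the 3 most positive and the 3 most negative in samples 5 and 6, and those with a symbol; a few others outside this rule were named after their values were seen. Planned counts of promoter motifs, protein lengths and description words were not run, as no such sequences or descriptions were used here.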

Additional observations from a re-analysis of the deposited data

Results flagged for a closer look

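Of 96 groups of 6 samples, the high-CO2 and the normal-CO2 samples of 48 named genes, 4 had a sample whose gap in percentile rank to the nearest other exceeded Dixon's critical share of the group's whole range. Chance gives such a gap in about 1 in 20 groups of independent values. AT1G18290 had normal-CO2 sample 3 at 24.9, against others between 40.2 and 46.5 (share 0.709). AT5G17630 had normal-CO2 sample 6 at 80.4, against others between 74.9 and 76.6 (share 0.691). CCS had high-CO2 sample 4 at 64.6, against others between 38.8 and 47.8 (share 0.651), and normal-CO2 sample 1 at 27.8, against others between 37.5 and 42.9 (share 0.644).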

How the results depend on the processing

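No paired analysis was possible because the values come from no test. Comparisons by sample number are given only as counts, and as the SD between sample numbers used for the named genes below. With the deposited intensities in place of ranks, 166 genes met the rule, 76 of the 79 among them, on a scale where the median probe is brighter in high-CO2 samples 1 to 4. With median scaling 86 genes met it, 63 of the 79 among them. Leaving out single samples gave 77 to 95 genes, and the remaining settings 69 to 83. The median rank difference in samples 1 to 4 (19.8 points) ran from 18.4 to 20.9 on leaving out single samples and was 11.31 over all 6 samples, a setting chosen after seeing the data. The median log2 difference in samples 1 to 4 (1.08) ran from 0.998 to 1.145 on leaving out single samples, added after seeing the data, and was 2.263 as deposited, 0.771 with an offset of 0.1 in place of the floor and 0.592 over all 6 samples. In samples 5 and 6 it was -0.364, and -1.011 as deposited, -0.475 with median scaling and -0.25 with the offset. Leaving out single samples gave -0.464 to -0.304 there. The cause of these shifts was not tested. For the 48 named genes, 465 of 480 recalculations moved the rank difference by less than the SD between sample numbers, 15 by more, and none changed its sign. Under the rule, leaving out single samples cannot change the sign. Averaging over a gene's probes changes nothing here, as none of the 79 has more than 1 single-gene probe. The meaning of a listed 0 and the dim level of most of the 79 genes limit the folds.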
